A study of Mus musculus with 246 samples.

Results

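The glutamate receptor and transporter genes are a set of 30 genes, chosen by name, out of the 56691 genes of the count table: 17 genes for subunits of ionotropic receptors, 7 for metabotropic receptors and 6 for transporters. They were followed across 6 regions: the mPFC (medial prefrontal cortex) and ACC (anterior cingulate cortex), the vHipp (ventral hippocampus), the DMT (dorsomedial thalamus), the BLA (basolateral amygdala) and the Nacc (shell of the nucleus accumbens) of 41 adult male CD1 mice, an outbred strain, in libraries of poly-A RNA, 1 for each region of each mouse. Both hemispheres' punches of a region were pooled. Ctrl_Vehicle mice were reared normally by dams that had been injected with the empty carrier gel. ELA_Vehicle mice went through early life adversity, in which dam and pups were given little bedding and nesting material in the first postnatal days, and their dams also had the carrier gel. ELA_SAFit2 mice went through the same adversity while the dam carried a gel that released SAFit2, an inhibitor of the stress co-chaperone FKBP51, which reached the pups through the milk. No control mice had SAFit2, so that the compound was only seen together with adversity. Within each condition, brains were taken either after an interaction of 10 minutes with an unfamiliar mouse (SocialInteraction) or without it (NoInteraction). There were 7, 7 and 7 mice of the Ctrl_Vehicle, ELA_Vehicle and ELA_SAFit2 conditions in the NoInteraction set and 6, 7 and 7 in the SocialInteraction set. Mice of a condition could be littermates and the labels do not give the litter, so the p-values below measure the spread between mice and not between litters.

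Glutamate is the main excitatory transmitter of the forebrain. It is loaded into synaptic vesicles by the vesicular transporters, opens AMPA, NMDA and kainate receptor channels on the receiving cell, acts more slowly through metabotropic receptors that couple to G proteins, and is cleared by uptake carriers, largely those of astrocytes. Cortical and hippocampal pyramidal neurons mostly use the vesicular transporter encoded by Slc17a7 (VGLUT1), thalamic relay neurons that encoded by Slc17a6 (VGLUT2), and scattered cholinergic, serotonergic and interneuron populations that encoded by Slc17a8 (VGLUT3). The subunit makeup of a receptor sets its speed, its calcium permeability and its block by magnesium.

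Total counts per library ran from 20804247 to 43351424 with a median of 28844788. In the Nacc, 12 of 41 libraries carried the expression profile of another mouse than their label names, by 60 genes that differ stably between individual mice, and these were 2 in each of the 6 combinations of condition and set. In the other 5 regions 0 libraries did so. Group comparisons in the Nacc thus rest on labels that go against the data, and were also made without those libraries. Libraries of the ACC from 2 mice (Ctrl_Vehicle SocialInteraction and ELA_Vehicle NoInteraction) and of the DMT from 1 (ELA_SAFit2 SocialInteraction) were low in long transcripts: the median log2 level of genes over 10 kb of exon relative to that of genes under 2 kb lay 1.15, 0.45 and 0.64 below the median of the region, against -0.30 to 0.14 for the other libraries. Markers of the olfactory bulb or of striatal projection neurons were over 3 times the median of the region in 11 mPFC and 6 ACC libraries. Markers of the labelled tissue were present in the BLA, DMT, Nacc and vHipp, and no marker list of the mPFC and ACC is reported. The sum of the thalamic markers was 1322 to 2030 CPM (counts scaled to a common library size by TMM) in the DMT, and that of the striatal markers 815.1 to 3216 CPM in the Nacc. BLA libraries also held the striatal markers, at 359.1 to 2420 CPM with a median of 933.7 CPM. Medians of that sum in the mPFC, ACC, DMT and vHipp were 45.05 to 130.5 CPM. The amygdala markers had a median of 841.1 CPM in the BLA. The part of striatal cells in the BLA levels was not tested.

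The start regions of the 3 vesicular transporter genes are shown because these genes set the regions apart more than most of the other members. The windows hold 250 bases before and 50 after the most upstream start that RefSeq lists on GRCm38.p6, and are written in the direction of transcription. Capitals mark the GC box GGGCGG or its reverse complement. The Slc17a7 window (chr7:45163671-45163970, plus strand), the Slc17a6 window (chr7:51621580-51621879, plus strand) and the Slc17a8 window (chr10:89621200-89621499, minus strand) read as follows.
Slc17a7: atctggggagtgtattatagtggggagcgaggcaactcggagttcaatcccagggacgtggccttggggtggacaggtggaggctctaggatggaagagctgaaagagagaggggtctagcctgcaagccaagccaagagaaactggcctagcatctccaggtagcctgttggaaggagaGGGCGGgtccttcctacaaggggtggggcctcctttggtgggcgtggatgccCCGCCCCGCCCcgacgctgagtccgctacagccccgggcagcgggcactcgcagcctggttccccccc
Slc17a6: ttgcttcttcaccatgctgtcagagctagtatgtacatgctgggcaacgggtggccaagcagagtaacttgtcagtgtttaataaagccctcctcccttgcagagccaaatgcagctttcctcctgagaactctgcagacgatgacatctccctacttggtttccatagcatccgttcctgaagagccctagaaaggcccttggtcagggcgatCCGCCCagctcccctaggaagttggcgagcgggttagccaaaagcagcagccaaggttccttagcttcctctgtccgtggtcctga
Slc17a8: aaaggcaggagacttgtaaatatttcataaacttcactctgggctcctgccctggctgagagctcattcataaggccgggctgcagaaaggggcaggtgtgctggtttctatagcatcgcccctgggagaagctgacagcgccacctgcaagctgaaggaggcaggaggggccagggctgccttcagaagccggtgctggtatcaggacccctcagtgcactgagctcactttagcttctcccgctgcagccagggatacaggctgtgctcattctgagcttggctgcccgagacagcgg
The Slc17a7 window held 3 GC boxes, of which 2 overlap by 1 base, and 13 CpG dinucleotides at 63.7% G and C. That of Slc17a6 held 1 GC box and 8 CpG at 53.7%, and that of Slc17a8 held 0 GC boxes and 7 CpG at 58.0%. On either strand a GC box was present in 35.7% of the 32851 promoter windows of the same length, of which a gene can have several. It was present in 12 of the 21 members that have a window. Each member was counted once, by its window of lowest coordinate, which for Slc17a8 is not the window shown. The core TGACG of the cAMP response element was present in 20.8% of all windows and 3 of the 21 members, and the TATA box TATAAA in 13.6% and 2 of 21. These matches are a description of the letters in the windows.

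Between regions, the members differed widely. Each region was compared with the mean of the other 5 in 1 edgeR quasi-likelihood model with the mouse as a block. A gene was called at a Benjamini-Hochberg adjusted p under 0.05 over the 17381 protein-coding genes tested, together with a change of at least 1 on the log2 scale. All genes, here and below, means the protein-coding genes tested. Of the 30 members, 29 passed the filter on low counts. The exception was Grm6, the receptor of retinal bipolar cells, with 31 counts in all libraries together. Of the 29, 18 (62.1%) were called in at least 1 region, against 4816 of 17381 genes (27.7%). In these punches, fewer cells of a type and less RNA per cell cannot be told apart.

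The DMT stood apart. There 14 of 29 members were called (48.3%), 6 higher and 8 lower, where the share over all genes was 18.4% (8.79% higher and 9.56% lower). The vHipp had 7 (background 10.9%), the Nacc 6 (background 9.27%), the mPFC 3 (background 7.34%), the ACC 3 (background 7.89%) and the BLA 1 (background 8.41%). In the mPFC, ACC and BLA the share of members called, 10.3%, 10.3% and 3.4%, was therefore close to or under that of all genes. The median absolute log2 difference of the members was 0.94 in the DMT against 0.33 for all genes, 0.42 against 0.21 in the vHipp, 0.32 against 0.19 in the Nacc, 0.35 against 0.16 in the mPFC, 0.31 against 0.17 in the ACC and 0.18 against 0.16 in the BLA. Because the mean of the other 5 regions includes the DMT, a gene that is far higher or lower there moves the contrasts of the other regions too. When the regions were set in the order of their mean level for each of the 29 members, 104 of 145 neighbours in that order differed at an adjusted p under 0.05 in edgeR, and 41 did not.

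**Figure D1:**
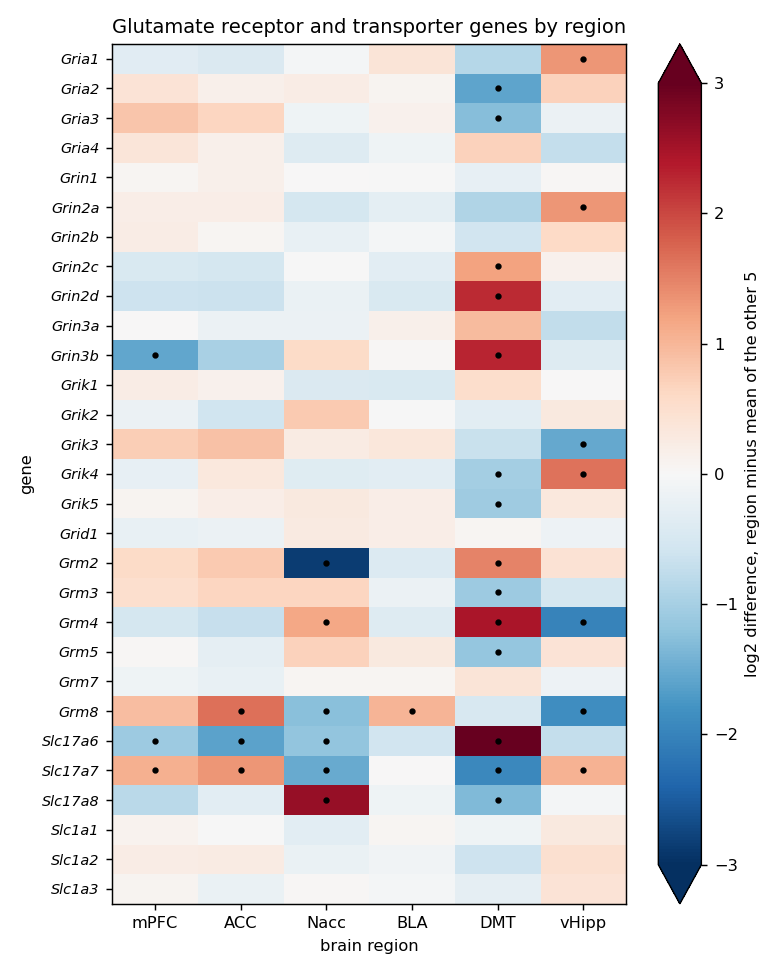
Log2 difference of each region from the mean of the other 5 for the 29 members that passed the filter, by gene (rows) and region (columns), from the edgeR model with the mouse as a block; red is higher and blue lower, colours stop at 3 and -3, and dots mark the members called. The DMT column holds 14 dots and the BLA column 1.

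The vesicular transporters showed the sharpest contrast. Slc17a6 had 520.6, 719.7 and 811.7 CPM (lowest, median and highest of 41 libraries) in the DMT. Its medians in the other regions were 23.62 CPM in the BLA, 22.08 in the vHipp, 19.54 in the mPFC, 16.9 in the Nacc and 14.35 in the ACC. Every DMT library lay above every library of the other regions, whose highest value was 95.62 CPM in the vHipp. In the DMT Slc17a6 was higher by 5.15 on the log2 scale (SE 0.07, adjusted p = 5.3e-151 in edgeR). It was called lower in the ACC (-1.60, SE 0.10), the Nacc (-1.17, SE 0.09) and the mPFC (-1.09, SE 0.09). Those 3 values are taken against means that include the high DMT level, and are not differences from the other low regions. Among the 5 regions other than the DMT, neighbours in order of level lay close. The vHipp was above the mPFC by 0.32 (SE 0.11) and the Nacc above the ACC by 0.35 (SE 0.12). The BLA and the vHipp (adjusted p = 0.42 in edgeR) and the mPFC and the Nacc (adjusted p = 0.59) did not differ beyond their spread.

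Slc17a7 went the other way. Its lowest, median and highest CPM were 1134, 1702 and 1864 in the ACC, 1032, 1459 and 1745 in the mPFC, and 1053, 1393 and 1779 in the vHipp. In the BLA they were 322.2, 779.7 and 1161, in the DMT 183.5, 246.1 and 352.5, and in the Nacc 20.23, 306.5 and 1106. The first 3 regions overlapped each other, and neighbours in the order of level among them did not pass in edgeR (adjusted p = 0.20 for ACC against mPFC, 0.86 for mPFC against vHipp), while the Nacc libraries spread over a 54.7-fold range. Slc17a7 was higher in the ACC (1.33 on the log2 scale, SE 0.09), the mPFC (1.07, SE 0.10) and the vHipp (1.04, SE 0.10), and lower in the DMT (-1.94, SE 0.12) and the Nacc (-1.50, SE 0.12).

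In median CPM Slc17a8 was the scarcest of the 3, and it was found mainly in the Nacc, with 6.349, 15.96 and 23.15 CPM. In the other 5 regions its medians were 1.482 to 3.219 CPM, and the highest library there had 6.49 CPM in the BLA, so that the Nacc libraries lay above nearly all others. It was higher in the Nacc by 2.61 on the log2 scale (SE 0.05, adjusted p = 4.5e-117 in edgeR) and lower in the DMT (-1.32, SE 0.08). The 12 Nacc libraries that match another mouse moved these values little: without them the Nacc difference was 2.57 for Slc17a8, -1.36 for Slc17a7 and -1.23 for Slc17a6, and the same 6 members were called.

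Levels per kilobase of exon allow a rough comparison of genes, with the length taken over all annotated exons of a gene. On this scale Slc17a7 made up 98.96% of the vesicular transporter level in the ACC, 98.52% in the mPFC, 98.15% in the vHipp, 96.35% in the BLA and 89.57% in the Nacc (medians over libraries). In the DMT it made up 26.37% and Slc17a6 73.47%. Slc17a8 reached 5.151% in the Nacc, where Slc17a6 had 4.24%, and was at or under 0.4194% elsewhere. Within a library, the log2 ratio of Slc17a7 to Slc17a6 counts, genes of nearly the same exon length, had a median of 6.86 in the ACC and -1.48 in the DMT (-2.11 to -0.87, below 0 in every library). In the Nacc it had a median of 4.42 and ran from -1.72 to 6.19, with Slc17a7 under Slc17a6 in 2 of 41 libraries.

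**Figure D2:**
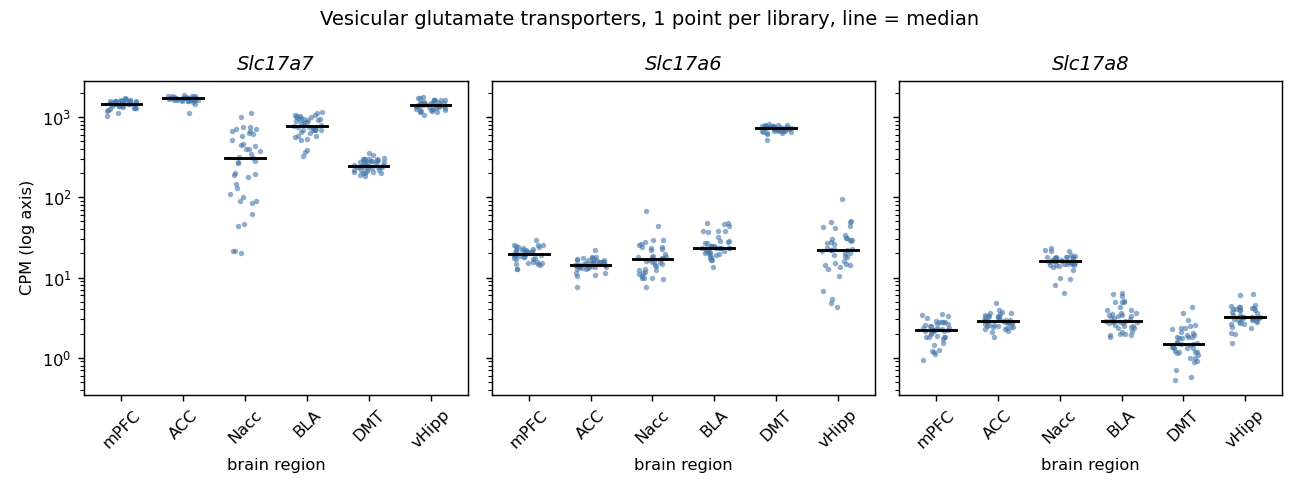
Level of Slc17a7, Slc17a6 and Slc17a8 in each library, in CPM on a log axis, by region; each point is a library and each line the median of 41. Slc17a6 is high in the DMT alone, Slc17a8 is highest in the Nacc, and the Nacc points of Slc17a7 run from 20.23 to 1106 CPM.

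Within 5 of the 6 regions the level of Slc17a6 moved with markers of the thalamus. The summed CPM of the 4 thalamic markers (Tcf7l2, Prkcd, Lef1 and Calb2) ran from 34.94 to 343.5 in the vHipp, from 28.59 to 123.5 in the Nacc and from 60.85 to 129.3 in the BLA. Over the 41 vHipp libraries Slc17a6 correlated with this sum on the log2 scale at Pearson's r = 0.80 and Spearman's rho = 0.73, each with p = 1e-05 in a permutation test, the smallest that 100000 permutations can give. After leaving out the 2 libraries farthest from the median sum, r was 0.72. In the Nacc r was 0.68 (rho 0.51, 0.48 without those 2), in the DMT 0.61 (rho 0.46, 0.53 without), in the BLA 0.54 (rho 0.56, 0.51 without) and in the mPFC 0.40 (rho 0.31, 0.33 without). In the ACC r was 0.16 (rho -0.13, -0.16 without, permutation p = 0.29). Of these 6 relations, that in the ACC did not pass, with a Benjamini-Hochberg adjusted p = 0.29, and the other 5 had adjusted p from 3e-05 to 0.010. A library shares its depth and dissection between both axes. The part of the marked cells in these levels was not tested.

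**Figure D3:**
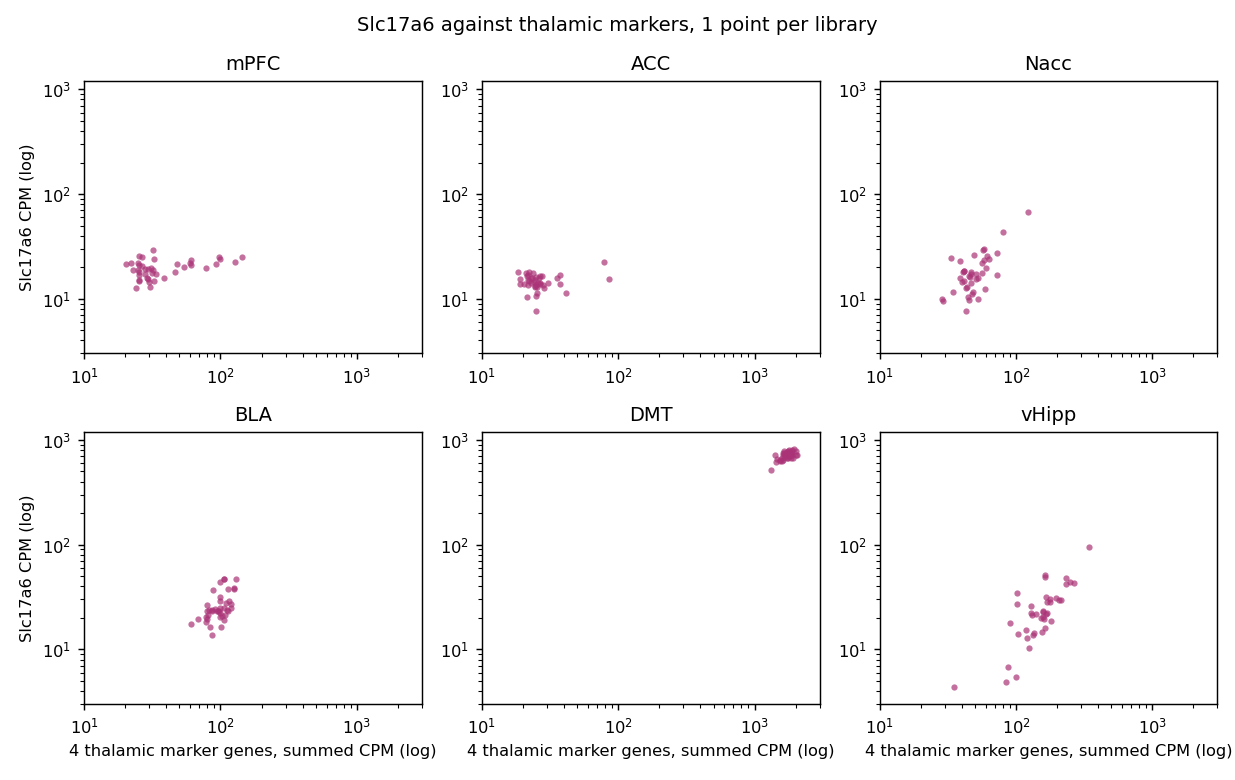
Slc17a6 level against the summed level of 4 thalamic markers, both in CPM on log axes, with 1 point per library and 1 panel per region. The DMT points lie apart at the upper right, the vHipp points rise together over a wide range (r = 0.80), and the ACC points show no such line (r = 0.16).

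Among the AMPA receptor subunits, which carry fast excitatory current, Gria1 was highest in the vHipp. There it had 1049, 1208 and 1415 CPM, against medians of 338.4 in the DMT to 702.7 in the BLA, and every vHipp library lay above all others. The vHipp difference was 1.32 on the log2 scale (SE 0.02, adjusted p = 3.0e-148 in edgeR). Gria2, the subunit that blocks calcium entry when it is edited, was low in the DMT, with 259.0, 297.8 and 361.9 CPM, while the medians elsewhere were 777.8 to 1086 CPM. It was lower in the DMT by 1.58 (log2 difference -1.58, SE 0.02), as was Gria3 (-1.29, SE 0.03), and Gria4 was not called in any region. The DMT and ACC libraries low in long transcripts are included here. The lowest Gria2 value outside the DMT, 463.6 CPM, was in the ACC.

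The subunit shares per kilobase of exon differed accordingly. They depend on the annotated length, 15548 bases for Gria2 and 6043 for Gria1, and serve to compare regions and not subunits. Gria1 made up 65.39% of the AMPA receptor level in the vHipp and 37.47% in the mPFC. Gria4 made up 23.4% in the DMT and 3.873% in the vHipp, although its levels in the DMT and vHipp fell short of a call (log2 differences 0.70 and -0.71). The log2 ratio of Gria1 to Gria2 counts, which is not corrected for length and serves only to compare regions, had medians of 0.23 in the DMT, 0.15 in the vHipp, -0.15 in the BLA, -0.59 in the Nacc, -0.89 in the ACC and -1.04 in the mPFC.

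Among the NMDA receptor subunits, the obligatory subunit Grin1 varied least. Its medians were 509.5 CPM in the DMT to 636.3 CPM in the ACC, and the mPFC, vHipp, Nacc and BLA did not differ between neighbours in order of level (adjusted p from 0.34 to 0.66 in edgeR). The other subunits, which set channel kinetics, were divided between the DMT and the vHipp. Grin2d, a subunit with slow kinetics and weak magnesium block, had 71.46, 90.13 and 109.7 CPM in the DMT against medians of 17.52 to 20.89 elsewhere, and every DMT library lay above all others. It was higher in the DMT by 2.23 on the log2 scale (SE 0.04, adjusted p = 4.1e-129 in edgeR), and Grin2c by 1.20 (SE 0.03).

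Grin3b, a subunit best known from motor neurons, was near the detection limit, with 0.3174, 0.6837 and 1.349 CPM in the DMT and medians of 0.07066 to 0.2096 CPM elsewhere. The groups overlapped, with a highest value outside the DMT of 0.552 CPM in the Nacc. The DMT difference was 2.29 (SE 0.10), and Grin3b was lower in the mPFC (-1.55, SE 0.17), where some libraries had 0 counts. Grin2a, a subunit of mature forebrain NMDA receptors, had 372.3, 463.4 and 576.9 CPM in the vHipp, above every library of the other regions, whose medians were 125.3 CPM in the DMT to 244.7 CPM in the ACC. The vHipp difference was 1.32 (SE 0.03, adjusted p = 1.1e-106 in edgeR), and the ACC and mPFC did not differ (log2 difference 0.00, SE 0.04). Grin2b and Grin3a were not called in any region, with medians of 435.4 to 814.6 CPM and 51.54 to 135.1 CPM.

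Per kilobase of exon, again to compare regions and not subunits, Grin2d made up 11.34% of the NMDA receptor level in the DMT and 2.18% to 2.718% in the other regions. Grin2c made up 15.75% in the DMT and 5.867% to 8.689% elsewhere, and Grin2a 18.8% in the vHipp and 5.779% in the DMT. The log2 ratio of Grin2a to Grin2b counts had a median of -0.85 in the vHipp (-1.16 to -0.58) and of -1.75 to -1.34 in the other 5 regions, and is again not corrected for length.

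The kainate receptor subunits were set apart by the vHipp. Grik4, a high-affinity subunit known from mossy fibre synapses of the hippocampus, had 60.43, 82.65 and 130.8 CPM there and medians of 18.1 to 40.18 CPM elsewhere. The highest BLA library, at 63.07 CPM, reached into the vHipp range, and no library of the other 4 regions did. It was higher in the vHipp by 1.64 on the log2 scale (SE 0.05, adjusted p = 1.0e-87 in edgeR) and lower in the DMT (-1.02, SE 0.06). Grik3, a subunit of low glutamate affinity, was instead lowest in the vHipp, with 43.75, 70.19 and 110.1 CPM, a difference of -1.53 (SE 0.04), and medians of 115.0 CPM in the DMT to 279.2 CPM in the ACC. Grik5 was lower in the DMT (-1.07, SE 0.02). Grik1, Grik2 and the delta receptor gene Grid1, a synaptic organiser that binds cerebellins, were not called in any region. Their medians were 12.72 to 23.6 CPM, 79.88 to 178.4 CPM and 78.24 to 103.4 CPM. In the BLA, Grik1 (-0.47, SE 0.05) was among the members with the largest absolute differences, together with Slc17a6 (-0.59, SE 0.09), and neither was called there. For Slc17a6 the mean of the other 5 regions includes the DMT, at a mean of 715.4 CPM. The BLA, at 26.39 CPM, ranked 2 of the 6 regions for this gene.

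Among the metabotropic receptors, Grm4, a presynaptic receptor that lowers transmitter release, had 113.6, 196.1 and 230.1 CPM in the DMT, 49.5, 91.76 and 113.6 CPM in the Nacc and 7.798, 13.87 and 31.24 CPM in the vHipp. The DMT was high, the vHipp low and the Nacc between them, and the 3 ranges did no more than touch. The log2 differences were 2.44 in the DMT (SE 0.04, adjusted p = 7.5e-129 in edgeR), 1.16 in the Nacc (SE 0.05) and -2.0 in the vHipp (SE 0.06, adjusted p = 9.6e-85). The BLA, mPFC and ACC did not differ between neighbours (adjusted p = 0.063 and 0.061 in edgeR).

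Grm2, a receptor of the group that sits outside the release site, had 5.429, 9.073 and 44.25 CPM in the Nacc and medians of 42.26 CPM in the BLA to 124.5 CPM in the DMT elsewhere. The Nacc was lower by 2.85 (log2 difference -2.85, SE 0.08, adjusted p = 8.1e-91 in edgeR), and the DMT higher (1.49, SE 0.05). Without the 12 Nacc libraries that match another mouse, the Nacc value was -2.81. Grm8, a presynaptic receptor with high glutamate affinity, had 22.28, 37.32 and 48.77 CPM in the ACC and 1.473, 5.176 and 9.293 CPM in the vHipp, with no overlap between the 2 regions. It was higher in the ACC (1.65, SE 0.05, adjusted p = 2.5e-86 in edgeR) and in the BLA (1.01, SE 0.05), and lower in the vHipp (-1.86, SE 0.07) and the Nacc (-1.25, SE 0.06). The BLA call lay at the fold limit and fell just under it without the filter on low counts (0.99) and in the NoInteraction mice alone (0.98). BLA libraries also held choroid plexus markers at 23.01 to 5728 CPM (sum of Ttr, Kl, Folr1, Kcnj13 and Clic6, all 5 with a median above 0), whose part in these levels was not tested.

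In the DMT Grm5, the postsynaptic receptor coupled to calcium stores, was lower (-1.17, SE 0.03), and so was Grm3 (-1.10, SE 0.03), which is found on astrocytes and neurons. Grm7 was not called in any region, with medians of 63.06 to 87.39 CPM. Of the metabotropic receptor level per kilobase, Grm4 made up 33.79% in the DMT, where Grm5 made up 14.59%. In the vHipp Grm4 made up 3.251% and Grm5 46.93%.

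The uptake carriers were not called in any region. Slc1a2 (GLT-1), the main carrier of astrocytes, was the most abundant of them, with medians of 2017 CPM in the DMT to 3663 CPM in the vHipp. Slc1a3 (GLAST), also of astrocytes, had medians of 421.4 to 610.4 CPM, and the neuronal carrier Slc1a1 (EAAC1) 122.7 to 175.2 CPM. Per kilobase, Slc1a2 made up 69.21% to 78.11% of the uptake carrier level. The largest difference among them was that of Slc1a2 in the DMT (-0.62, SE 0.02). The summed astrocyte markers had medians of 1184 CPM (vHipp), 1047 (DMT), 752.4 (Nacc), 711.3 (BLA), 608.3 (ACC) and 596.4 (mPFC), and their part in the carriers' levels was not tested.

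A list of 40 further genes of the pathway covered glutamate metabolism, receptor auxiliary subunits and scaffolds. Of these, 5 were called higher and 10 lower in the DMT (background 18.4% in either direction) and 5 and 4 in the vHipp (background 10.9%). There were 2 and 3 in the Nacc (background 9.27%), 0 and 2 in the ACC (background 7.89%), 0 and 2 in the mPFC (background 7.34%) and none in the BLA (background 8.41%). In the Nacc, ACC, mPFC and BLA these counts were close to or under the share of all genes. In the DMT the 3 with the smallest p were Dlg2 (-1.65 on the log2 scale, SE 0.02), a scaffold of NMDA receptors, Shisa7 (-2.48, SE 0.03) and Neto1 (-3.70, SE 0.05), an auxiliary subunit of kainate receptors. In the vHipp they were the scaffold Homer3 (2.99, SE 0.04) and the AMPA receptor auxiliary subunits Cacng8 (1.32, SE 0.02) and Shisa6 (3.02, SE 0.06). In the Nacc Neto1 (1.12, SE 0.03) and Gsg1l (1.09, SE 0.05) were higher and Shisa6 was lower (-1.56, SE 0.08). Shisa6 was also lower in the ACC (-1.67, SE 0.08) and the mPFC (-1.65, SE 0.08), along with Cacng5 in the ACC (-1.45, SE 0.09) and Homer3 in the mPFC (-1.12, SE 0.06).

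Next, the 3 conditions were compared within each region to ask whether adversity, or SAFit2 given during it, left a lasting difference. Over 36 comparisons, 3 pairs of conditions in 6 regions with and without the interaction, none of 1038 member tests passed an adjusted p of 0.05 in edgeR over all genes of the region, and 7 of 569856 tests over all genes did. The background share called was 0.00632% in the mPFC without interaction for both contrasts of ELA_Vehicle, 0.0126% in the Nacc for the same 2 contrasts, 0.00631% in the DMT with interaction for ELA_SAFit2 against Ctrl_Vehicle, and 0% in the others. The 36 comparisons share their groups within a region and are not independent. At an unadjusted p under 0.05 there were 43 member tests (4.14%), against 4.67% of the tests over all genes. Without the interaction these were 15 of 519 (2.89%, against 4.62%), and with it 28 of 519 (5.39%, against 4.72%). Of the 28, the ACC gave 6 for ELA_Vehicle minus Ctrl_Vehicle and 4 for ELA_SAFit2 minus Ctrl_Vehicle. In those 2 contrasts 12.5% and 9.98% of all genes had such a p. Their Ctrl_Vehicle group holds the library lowest in long transcripts, whose part was not tested. The smallest adjusted p of a member was 0.286. DESeq2 also called 0 member tests, and so did the fits without the 12 Nacc libraries. Log2 differences of the members ran from -0.58 to 1.04, and the far ends were low genes: Grin3b in the vHipp of ELA_Vehicle against Ctrl_Vehicle mice without interaction at 1.04 (SE 0.47, adjusted p = 0.96 in edgeR) and Slc17a6 in the Nacc of ELA_SAFit2 against ELA_Vehicle mice at -0.58 (SE 0.32, adjusted p = 0.46).

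For each comparison, the member with the smallest unadjusted p is given next as a description, since none passed the adjustment. Without the interaction and for ELA_Vehicle minus Ctrl_Vehicle, these were Slc17a8 in the mPFC (0.44 on the log2 scale), Slc17a6 in the ACC (-0.30), Grin3a in the Nacc (0.44, SE 0.14, adjusted p = 0.56 in edgeR), Gria3 in the BLA (-0.09), Slc1a3 in the DMT (-0.09) and Grin3b in the vHipp. For ELA_SAFit2 minus ELA_Vehicle they were Slc17a8 in the mPFC (-0.41), Slc17a6 in the ACC (0.38, SE 0.12, adjusted p = 0.68 in edgeR), Grin3a in the Nacc (-0.38, SE 0.14, adjusted p = 0.29), Slc1a1 in the BLA (-0.09), Slc17a8 in the DMT (0.44) and Grm3 in the vHipp (-0.22). For ELA_SAFit2 minus Ctrl_Vehicle they were Grm4 in the mPFC (0.23), Grin1 in the ACC (-0.07), Grm2 in the Nacc (-0.56), Slc1a1 in the BLA (-0.09), Grik2 in the DMT (-0.14) and Grm3 in the vHipp (-0.32, SE 0.09, adjusted p = 0.76 in edgeR). Slc17a8 in the mPFC, Slc17a6 in the ACC and Grin3a in the Nacc were named in 2 contrasts that share the ELA_Vehicle group, on opposite sides of the difference.

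After the interaction, ELA_Vehicle minus Ctrl_Vehicle gave Grik2 in the mPFC (0.19), Grik4 in the ACC (-0.28, SE 0.08, adjusted p = 0.35 in edgeR), Grm3 in the Nacc (0.17), Grin2d in the BLA (0.25), Grid1 in the DMT (0.12) and Grin2c in the vHipp (0.14). ELA_SAFit2 minus ELA_Vehicle gave Grm7 in the mPFC (0.13), Grm4 in the ACC (-0.19), Grm3 in the Nacc (-0.18), Slc17a6 in the BLA (0.40), Slc1a2 in the DMT (-0.19, SE 0.07, adjusted p = 0.88 in edgeR) and Grin2b in the vHipp (-0.14). ELA_SAFit2 minus Ctrl_Vehicle gave Grik1 in the mPFC (-0.25), Grin3a in the ACC (0.22), Slc17a8 in the Nacc (-0.26), Grm7 in the BLA (0.14), Slc1a2 in the DMT (-0.20) and Grin2c in the vHipp (0.13). Counted over the 36 comparisons, Grin3a had an unadjusted p under 0.05 in 5 and Slc17a8 in 4, and 9 members had it in none.

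The difference between conditions in their response to the interaction was tested as an interaction term. None of 346 member tests passed in edgeR or in DESeq2, against 34 of 189952 tests over all genes, all 34 in the terms of ELA_SAFit2 minus ELA_Vehicle (0.0441% of genes in the Nacc, 0.0382% in the ACC, 0.0382% in the vHipp, 0.0379% in the DMT, 0.0313% in the BLA and 0.0253% in the mPFC). An unadjusted p under 0.05 was reached by 21 member tests (6.07%, against 4.61%). Of these, 10 were in the ACC for ELA_Vehicle minus Ctrl_Vehicle, 9 of them positive, where 11.7% of all genes had such a p. The members with the smallest p there and in the Nacc were Gria2 (0.30, SE 0.11, adjusted p = 0.41 in edgeR) and, for ELA_SAFit2 minus ELA_Vehicle, Grin3a (0.58, SE 0.19, adjusted p = 0.47). For ELA_Vehicle minus Ctrl_Vehicle the others were Slc17a7 in the mPFC (-0.25), Grin3a in the Nacc (-0.47), Grin2a in the BLA (0.26), Slc1a3 in the DMT (0.14) and Grin2c in the vHipp (0.22). For ELA_SAFit2 minus ELA_Vehicle they were Grin2a in the mPFC (0.19), Slc17a8 in the ACC (0.56), Slc1a1 in the BLA (0.11), Slc1a2 in the DMT (-0.22) and Grm4 in the vHipp (-0.58). The ACC Ctrl_Vehicle SocialInteraction group holds the library that is lowest in long transcripts.

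Some members changed after the brief social interaction. Pooled over the 3 conditions, Grin2a, Grin2b and Slc1a1 rose in the mPFC (3 of 28 members tested, where 7.62% of all genes were called) and Grin2a rose in the ACC (1 of 29, background 4.22%). None was called in the BLA (background 1.54%), the DMT (background 1.63%), the vHipp (background 1.22%) or the Nacc (background 0%). In the Nacc 0 genes passed in edgeR and in DESeq2, 417 genes had an unadjusted p under 0.05 in edgeR, and without the 12 libraries that match another mouse 4 genes passed, none of them a member. The member count in the mPFC is close to the share of all genes, and that in the ACC is under it.

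Grin2a in the mPFC had 190.5, 227.2 and 249.8 CPM in the 21 mice without interaction and 198.6, 263.7 and 297.4 CPM in the 20 mice with it. The sets overlapped, but 13 of 20 mice with interaction lay above the highest mouse without it, and 18 of 20 above the median of those mice. The log2 difference was 0.23 (SE 0.04, adjusted p = 0.00019 in edgeR). By condition it was 0.34 in ELA_SAFit2 (SE 0.07, adjusted p = 0.0054 in edgeR), 0.20 in Ctrl_Vehicle (SE 0.07, adjusted p = 0.30) and 0.15 in ELA_Vehicle (SE 0.07, adjusted p = 0.49), where 1.26%, 0.145% and 0.0379% of all genes were called. A response particular to ELA_SAFit2 was not shown: its interaction term against ELA_Vehicle was 0.19 (SE 0.10, unadjusted p = 0.051 in edgeR) and was not called. In the ACC 0 members were called in Ctrl_Vehicle (background 0%), ELA_Vehicle (background 0.0191%) or ELA_SAFit2 (background 0.102%) alone. Grin2a in the mPFC was called in each of the 41 fits that left out 1 mouse, at 0.22 to 0.24.

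**Figure D4:**
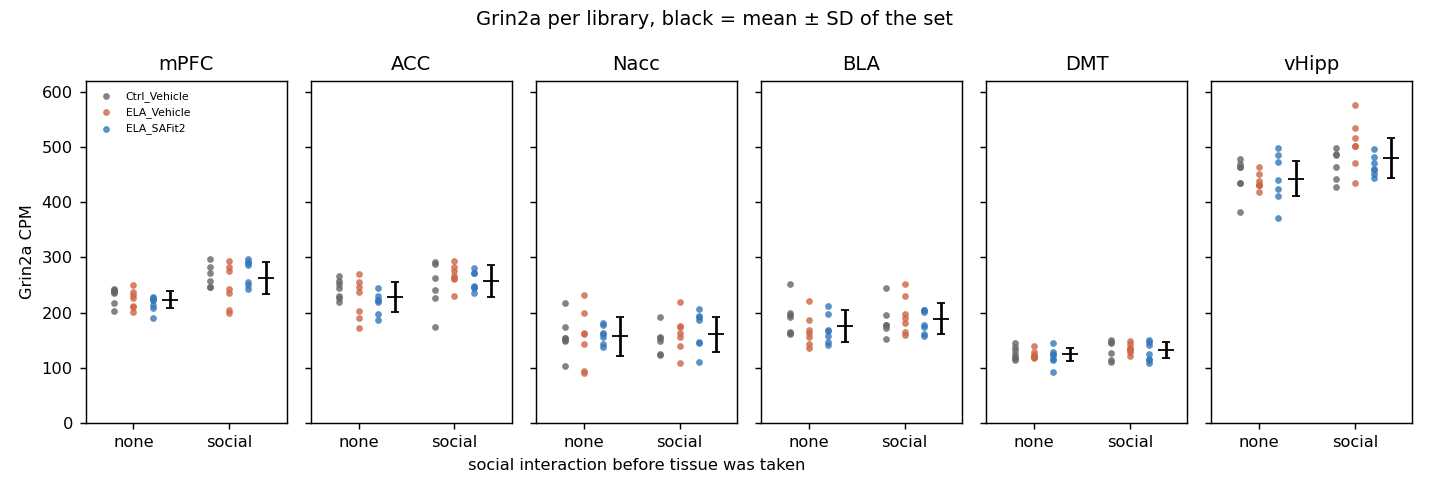
Grin2a level in CPM in each library, by region and by set (none: NoInteraction, social: SocialInteraction), coloured by condition; the black marks are the mean and SD of the 21 and 20 mice of each set. In the mPFC 13 of 20 mice with interaction lie above the highest mouse without it, in the ACC 8 of 20, and the vHipp points are the highest of the 6 regions.

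In the ACC Grin2a had 171.5, 229.7 and 269.1 CPM without and 173.2, 262.7 and 294.1 CPM with the interaction, and 8 of 20 mice with it lay above all mice without it. The log2 difference was 0.17 (SE 0.05, adjusted p = 0.043 in edgeR). This call was at the edge of the threshold: leaving out 1 mouse at a time kept it in 19 of 41 fits, with adjusted p from 0.0038 to 0.082 in edgeR, and without the 6 ACC libraries high in olfactory bulb or striatal markers the difference was as large but did not pass (0.18, SE 0.05, adjusted p = 0.062). Without the 2 ACC libraries low in long transcripts, 4 members were called in place of 1: Grin2a (0.18, adjusted p = 0.0040 in edgeR), Slc1a1 (0.08, adjusted p = 0.0035), Grin2b (0.16, adjusted p = 0.017) and Grin3a, which was lower (-0.13, adjusted p = 0.027). The share of all genes called in that fit is not given here, so the count cannot be read as particular to the members. With 1 mouse left out at a time, 464 to 1209 of all genes were called in the ACC, against 664 with all mice. In the mPFC Grin2a was as large without the 11 libraries high in those markers (0.26, adjusted p = 0.00020).

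Grin2b in the mPFC, also an NMDA receptor subunit, had 537.2, 640.1 and 781.4 CPM without and 571.1, 696.4 and 853.4 CPM with the interaction. The sets overlapped over most of their range, and 2 of 20 mice lay above the highest mouse without interaction. The difference was 0.14 (SE 0.04, adjusted p = 0.026 in edgeR). It was called in 39 of 41 fits that left out 1 mouse, the exceptions being the ELA_Vehicle mice 5 (NoInteraction) and 59 (SocialInteraction) with adjusted p = 0.052 and 0.056, and without the 11 marker-high libraries it was as large but did not pass (0.14, adjusted p = 0.084). Slc1a1 in the mPFC had 125.4, 156.1 and 173.4 CPM without and 148.9, 165.8 and 183.7 CPM with the interaction. Its difference was 0.10 (SE 0.03, adjusted p = 0.022 in edgeR), and all 41 fits that left out 1 mouse called it.

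Between the sets, the immediate early genes of the mPFC (sum of Fos, Arc, Egr1, Npas4, Nr4a1 and Junb) had medians of 433.6 CPM without and 633.6 CPM with the interaction. The sum of the neuronal markers had medians of 6660 and 6831 CPM. These ranges overlapped between the sets, and their part in the result was not tested. Slc17a7 in the mPFC was not called.

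The response of Grin2a was positive in the other regions as well, at 0.12 in the vHipp (SE 0.03), 0.10 in the BLA (SE 0.07), 0.09 in the DMT (SE 0.05) and 0.03 in the Nacc (SE 0.10). In the vHipp its adjusted p was 0.065 in edgeR and 0.028 in DESeq2. Whether the mPFC response differed from that of the other regions was tested within mice for the 3 called members, in 15 permutation tests chosen after the data were seen. None passed, with adjusted p from 0.11 to 0.92. Without the 12 Nacc libraries that match another mouse, the 3 tests against the Nacc had permutation p from 0.27 to 0.62 and adjusted p from 0.38 to 0.67. For Grin2a the mPFC response exceeded that of the DMT by 0.14 (permutation p = 0.025, adjusted p = 0.11) and that of the ACC by 0.05 (adjusted p = 0.43), so that a larger response in the mPFC was not shown.

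In the regions with no call, the members with the smallest p were Grik1 in the BLA (-0.29, SE 0.09, adjusted p = 0.067 in edgeR and 0.036 in DESeq2), Grid1 in the DMT (-0.09, SE 0.03, adjusted p = 0.21) and Grm8 in the Nacc (0.18, SE 0.13, adjusted p = 1.0). Grik1 in the BLA had 10.89, 13.48 and 20.86 CPM without and 8.297, 11.77 and 15.89 CPM with the interaction, and the sets overlapped.

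**Figure D5:**
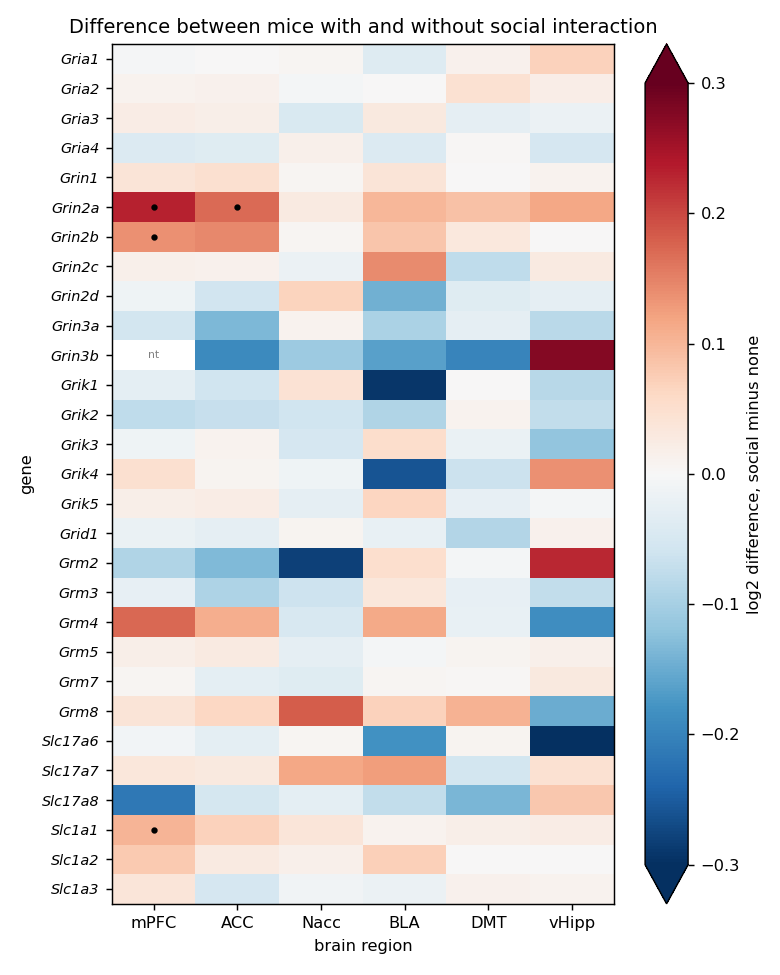
Log2 difference between mice with and without the social interaction, pooled over the 3 conditions, for the 29 members (rows) in each region (columns); red is higher after the interaction, colours stop at 0.3 and -0.3, dots mark members called, and nt marks the member not tested in the mPFC. The dots are at Grin2a, Grin2b and Slc1a1 in the mPFC and at Grin2a in the ACC.

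Of the 40 further pathway genes, Homer1, which encodes a synaptic scaffold with an activity-induced short form, rose in the mPFC (0.58, SE 0.07, adjusted p = 2.4e-07 in edgeR), the ACC (0.49, SE 0.08) and the BLA (0.27, SE 0.06). Glul, the glutamine synthetase of astrocytes, rose in the BLA (0.23, SE 0.05), the DMT (0.20, SE 0.04) and the vHipp (0.20, SE 0.04). Dlg1 (0.14, SE 0.03) and Shisa7 (0.14, SE 0.04) rose in the mPFC and Neto1 in the ACC (0.10, SE 0.03). Of the 40, 3 were called in the mPFC (background 7.62%) and 2 in the ACC (background 4.22%), close to the share of all genes. There were 2 in the BLA (background 1.54%), 1 in the DMT (background 1.63%), 1 in the vHipp (background 1.22%) and 0 in the Nacc (background 0%). No gene of the list was called lower in any region, where 2.73% of all genes were called lower in the mPFC and 1.79% in the ACC.

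With the 6 regions of each mouse summed, 1 of 29 members changed after the interaction, against 9.3% of the 17381 genes. Grin2a rose by 0.12 on the log2 scale (SE 0.03, adjusted p = 0.0029 in edgeR), which with the Nacc left out of the sum was 0.14, and Grin2b then also passed (0.08, SE 0.03, adjusted p = 0.045). Homer1 (0.32, SE 0.04), Glul (0.14, SE 0.03), Shisa7 (0.12, SE 0.03) and Dlg1 (0.06, SE 0.02) rose at that level too. These were 4 of the 40 pathway genes, close to the 9.3% of all genes. None of the members was called in the 3 condition contrasts, in which 0.00575%, 0% and 0.0115% of all genes were called. In edgeR 1220, 1022 and 783 genes had an unadjusted p under 0.05, and DESeq2 called 19, 13 and 12 genes. The smallest p belonged to Grid1 for ELA_Vehicle minus Ctrl_Vehicle (0.05, SE 0.02, adjusted p = 0.49 in edgeR), to Grm2 for ELA_SAFit2 minus ELA_Vehicle (0.12, SE 0.05, adjusted p = 0.79) and to Grin3b for ELA_SAFit2 minus Ctrl_Vehicle (0.23, SE 0.12, adjusted p = 1.0).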

How the data were processed

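The table of the whole series held estimated counts per gene, which the authors deposited. The table's name points to salmon, and the submitters' processing notes name STAR, DESeq2 and the genome builds GRCm39 and mm39. 12.12% of the deposited estimated counts were not whole and were rounded. Libraries were poly-A selected, stranded and paired-end. Of 56691 gene IDs, 52073 matched GENCODE M21 and 978 RefSeq symbols, which gave their types, and 3640 were left out. Exon lengths came from GENCODE M21 and cover all exons of all transcripts of a gene. Only protein-coding genes were tested, so that shares and adjusted p-values over all genes refer to these. Among them, genes with fewer than 100 counts in all, or found in fewer than 6 libraries, were dropped. Then 17381 were tested between regions and for summed regions, 15722 to 15992 within a region. CPM were scaled by TMM.

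Region contrasts and the order of regions came from 1 edgeR quasi-likelihood model with the mouse as a block, since the number in a title marks the same animal in the 6 regions. Comparisons within a region used 1 coefficient for each of the 6 combinations of condition and set, and mouse-level comparisons used counts summed over regions with condition and set as terms. P-values were adjusted by Benjamini and Hochberg over all genes tested. The members and lists were chosen with earlier results of these data known. Named were all members by role, with full values for the 3 largest differences of each region and for the members called, otherwise the member with the smallest p, and of the pathway list the 3 with the smallest p. Alternatives were DESeq2, RLE size factors, no filter, no mouse block, subsets of mice and libraries, and a fold limit of 0.5. Leaving out the libraries low in long transcripts or high in olfactory bulb or striatal markers, leaving out each mouse, and the tests between regions' responses were chosen after seeing the data. The fits were tested on simulated data. Depth is given with the results, and intervals cover the spread between mice. Tools were SciPy 1.17.1, pandas 2.3.3, NumPy 2.4.6 and Matplotlib 3.10.9 in Python 3.11.15, and edgeR 4.0.16, limma 3.58.1 and DESeq2 1.42.0 in R 4.3.3. Promoter windows came from RefSeq, GRCm38.p6, and 21 of 30 members had one. A result on a marker list of cortical neurons is not reported here.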

Additional observations from a re-analysis of the deposited data

Results flagged for a closer look

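Grin2a in all 6 regions, and 11 further pairs of a member and a region taken from the social and condition comparisons, were searched in each of the 6 combinations of condition and set for a highest or lowest mouse that stood farther from the others than Dixon's 95% limit for groups of 4 to 10 allows, which chance exceeds in about 1 in 20 groups. Of the 102 groups searched, 5 held such a mouse, close to that share. Grin2b in the ACC was lowest, at 319.9 CPM, in Ctrl_Vehicle mouse 89 after the interaction, and the next mouse of that group had 568.8 CPM. This library was also the lowest in long transcripts, and the part of that in the value was not tested. Slc1a1 in the mPFC was lowest, at 125.4 CPM, in Ctrl_Vehicle mouse 41 without interaction (next 151.2 CPM). Grik4 in the ACC was lowest, at 24.02 CPM, in ELA_Vehicle mouse 61 after the interaction (next 36.47 CPM). Grin2a in the BLA was highest, at 252.6 CPM, in Ctrl_Vehicle mouse 9 without interaction (next 198.3 CPM), and Grik1 in the BLA was highest, at 20.86 CPM, in ELA_SAFit2 mouse 39 without interaction (next 13.4 CPM).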

How the results depend on the processing

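Without the mouse as a block (no replicate block), region contrasts called the same numbers of members (14 DMT, 7 vHipp, 6 Nacc, 3 mPFC, 3 ACC and 1 BLA), and 104 of the 145 neighbours in the order of regions differed, as with the block. At a fold limit of 0.5 the members called were 22 (DMT), 13 (vHipp), 12 (ACC), 11 (mPFC), 11 (Nacc) and 2 (BLA). The share of all genes at that limit is not given here, so these counts cannot be read as particular to the members. At any fold, 75.1% (mPFC and BLA) to 86.4% (DMT) of all genes had an adjusted p under 0.05 in edgeR. The BLA had 0 calls without the filter and in the NoInteraction mice alone. For the social interaction, 0 members were called in the mPFC in Ctrl_Vehicle alone and in ELA_Vehicle alone and 1 in ELA_SAFit2 alone, and 0 in the ACC in each condition alone, where fewer mice enter the contrast. DESeq2 called 2 members in the ACC, 1 in the BLA and 1 in the vHipp. Without the libraries low in long transcripts the ACC had 4, and without those high in olfactory bulb or striatal markers 0. Summing 5 regions without the Nacc gave 2. The cause of these differences was not tested. Shares of all genes called with DESeq2, without those libraries and in the sum of 5 regions are not given here. Leaving out each mouse in turn for the social interaction, Grin2a in the mPFC stayed between 0.216 and 0.243 on the log2 scale and was called in 41 of 41 fits, and Grin2a in the ACC stayed between 0.152 and 0.198 and was called in 19. A further 317 counts, levels and ratios stayed within 1.5 times (counts) or within the spread between mice (levels and ratios), and no called value changed sign. Of the member values followed through the alternatives and through leaving out mice, 786 kept their side of the threshold, 29 lost the call and 4 gained one. Other members that gained a call are in the counts above. The condition comparisons, within regions and over summed regions, called 0 members under every alternative run for them. Grm6, with 31 counts in 23 libraries, was too shallow to compare.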
